A study of Mus musculus with 4 samples.

Results

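The 9 genes described here encode proteins of the ribbon synapse and of synaptic transmission in the mouse retina, and were taken by name from a table of long-read isoform counts: Ctbp2, Ctbp1, Stx3, Rims2, Unc13b, Cplx3, Cplx4, Lrit3 and Rabgef1. All 9 were found among the 13452 Ensembl genes of the table, with 36 listed isoforms (12 carrying an Ensembl transcript identifier and 24 without one) and 98076 counts. Retinal cells of male wild-type C57BL6/J mice were dissociated, captured as single cells on the 10x Genomics platform and sequenced as full-length cDNA on Oxford Nanopore instruments. Of the 4 libraries, 2 had no enrichment: 1 came from postnatal day 40 and the other has no age in the labels. A CD73 enrichment library was made at postnatal week 8, and a CD90.2 enrichment library at postnatal month 4. The laboratory protocol describes magnetic removal of CD73-positive photoreceptors and positive selection of CD90.2-bearing cells, whereas the design text names FACS. The deposited table holds no library columns, only 6 columns summed by cell class: rods, cones, bipolar cells (BC), amacrine cells (AC), retinal ganglion cells (RGC) and Müller glia (MG), and horizontal cells have no column.

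Photoreceptors and bipolar cells release glutamate continuously, and they do so at ribbons, plate-like structures that hold vesicles next to the release site. The scaffold of the ribbon is ribeye, a protein made from the Ctbp2 gene by a promoter of its own: the first exon of ribeye encodes a domain found in no other protein, and the exons after it are shared with the nuclear co-repressor CtBP2. Syntaxin 3 and complexins 3 and 4 are known for vesicle fusion at retinal ribbon synapses, and complexin 3 is known in amacrine cells too.

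Column totals ran from 3509890 counts (RGC) over 6133094 (MG), 7307134 (Cone), 29010038 (BC) and 48248340 (AC) to 55437340 (Rod). Levels are given as CPM, the counts scaled to a column total of 1000000, with exact 95% Poisson intervals, and shares with exact 95% Clopper-Pearson intervals. These intervals cover counting error only, since each class is 1 pooled column without replicates, and no test was possible. More cells of a type, more RNA per cell and deeper reading of a cell cannot be told apart in such sums. All 35 of the 35 markers examined for the 6 classes had their highest CPM in their own column. Rod RNA was counted in other columns too: the 5 rod markers (Gnat1, Pde6a, Pde6b, Nrl and Cnga1) summed to 0.788% of their rod level in the AC column, 1.71% in BC, 4.05% in Cone, 3.16% in MG and 0% in RGC. In the MG column, pigment epithelium markers summed to 8833 CPM (5 of 6 highest there) and microglia markers to 1573 CPM (6 of 6). In AC, ganglion markers summed to 693 CPM and horizontal cell markers to 346 CPM (2 of 5 highest there), against 428 CPM for amacrine markers. The horizontal list shares Tfap2b with the amacrine list. What share of member counts came from such cells was not tested. The table lists isoforms with 6 or more counts in total, so rarer forms are outside what it can show.

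The sequences on which the isoform results turn are printed here, read from the reference transcripts of the mouse build GRCm38 (mm10, the build named in the submitters' processing notes) and written 5′ to 3′. The first pair shows where ribeye and CtBP2 join the same exon at chr7:132999191-132999345 (minus strand). Lower case marks the end of the ribeye first exon (chr7:133013518-133013577) or the coding part of the CtBP2 exon (chr7:133025713-133025770), and capitals mark the first bases of the shared exon.
ribeye junction: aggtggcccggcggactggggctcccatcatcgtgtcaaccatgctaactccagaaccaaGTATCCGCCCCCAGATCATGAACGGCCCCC
CtBP2 junction: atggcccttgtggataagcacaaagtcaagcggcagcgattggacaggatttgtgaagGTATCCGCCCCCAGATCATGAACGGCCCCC
Only the lower-case part separates the forms, so counts that cover the shared exons alone carry no information on which protein is made.

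The second pair are the alternative exons of Stx3 that begin the C-terminal part of syntaxin 3, both on the minus strand, at chr19:11782800-11782910 and chr19:11783026-11783136. Capitals mark the positions at which they differ: 68 of 111 positions were the same (61.3%) and 43 differed.
Stx3 exon listed: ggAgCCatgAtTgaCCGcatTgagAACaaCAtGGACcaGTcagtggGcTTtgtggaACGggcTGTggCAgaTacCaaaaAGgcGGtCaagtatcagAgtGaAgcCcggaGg
Stx3 exon not listed: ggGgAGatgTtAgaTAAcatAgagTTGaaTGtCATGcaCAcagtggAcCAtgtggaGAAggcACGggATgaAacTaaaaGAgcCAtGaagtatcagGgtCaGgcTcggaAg

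The next sequences are exons that listed isoforms include or skip, in capitals, with flanking exon bases in lower case: the Cplx3 middle exon at chr9:57604717-57604804 (minus strand), the Unc13b exons at chr4:43161443-43161478 and chr4:43166668-43166700 (plus strand), and the Rims2 exon at chr15:39275414-39275500 (plus strand).
Cplx3 middle exon: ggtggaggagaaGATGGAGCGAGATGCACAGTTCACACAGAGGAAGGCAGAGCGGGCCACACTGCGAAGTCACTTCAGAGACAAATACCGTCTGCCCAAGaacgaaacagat
Unc13b 36-nt exon: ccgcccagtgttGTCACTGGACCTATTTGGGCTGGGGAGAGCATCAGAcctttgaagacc
Unc13b 33-nt exon: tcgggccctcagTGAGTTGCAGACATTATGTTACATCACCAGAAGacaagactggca
Rims2 87-nt exon: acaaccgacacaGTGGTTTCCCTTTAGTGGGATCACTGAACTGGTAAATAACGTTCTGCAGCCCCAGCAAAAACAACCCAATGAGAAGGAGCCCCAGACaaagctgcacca
All 4 lie within the coding sequence. The 36-nt, 33-nt and 87-nt exons are multiples of 3 and keep the reading frame, whereas the 88-nt Cplx3 exon leaves a remainder of 1 base.

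The last pair are the RefSeq promoter windows of the upstream and downstream starts of Rabgef1 (GRCm38.p6, plus strand), at chr5:130171569-130171868 and chr5:130186930-130187229, shown because cell classes differed in which start they used. Capitals mark TAATCC, the core recognised by photoreceptor homeodomain factors such as CRX, searched on both strands (GGATTA on the other).
Rabgef1 upstream start: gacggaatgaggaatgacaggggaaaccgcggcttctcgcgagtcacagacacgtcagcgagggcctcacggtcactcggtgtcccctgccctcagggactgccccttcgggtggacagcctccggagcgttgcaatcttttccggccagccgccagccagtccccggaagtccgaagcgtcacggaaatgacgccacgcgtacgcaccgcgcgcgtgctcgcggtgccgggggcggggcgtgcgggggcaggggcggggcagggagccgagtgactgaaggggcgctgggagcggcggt
Rabgef1 downstream start: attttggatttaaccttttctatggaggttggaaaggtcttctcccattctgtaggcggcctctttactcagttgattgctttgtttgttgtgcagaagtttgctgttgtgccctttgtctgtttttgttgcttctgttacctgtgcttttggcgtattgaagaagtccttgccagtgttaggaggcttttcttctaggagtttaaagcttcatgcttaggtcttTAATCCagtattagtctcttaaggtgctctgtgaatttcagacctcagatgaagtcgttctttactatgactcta
The upstream window had 70.3% G and C and 37 CpG pairs, and the downstream window 40.7% and 3, against a median of 52.7% and 7 over 32851 RefSeq promoter windows of the same length. TAATCC occurred once in the downstream window and not in the upstream one; 7.06% of all windows held it. Of the 10 windows of members, 3 held 1 copy each (the downstream start of Rabgef1, Stx3 and the ribeye start of Ctbp2) and 7 held none, those of Lrit3 and Unc13b among them.

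Across the 9 genes, 6 had their highest CPM in the Rod or Cone column (Stx3, Rims2, Unc13b, Cplx4, Lrit3 and Rabgef1), where 32.4% of the 12654 genes with at least 20 counts did. The median share of summed CPM that lay in the rod and cone columns was 70.5% for the 9 genes and 30.0% for all genes. A gene was called enriched where 1 column held at least 50% of its summed CPM over the 6 columns. Of the 9 genes, 3 were enriched: Rabgef1 (70.1% in Rod), Cplx4 (62.1% in Rod) and Lrit3 (62.8% in Cone). The share of all genes enriched in any class was 37.7%, in Rod 6.39% and in Cone 2.13%. The count of 3 of 9 was near the background for any class, and all 3 were in a photoreceptor column. Ctbp1 lay just under the threshold, with 49.5% in RGC (50.5% with median-of-ratios scaling), and Rims2 followed with 45.6% in Cone. The RGC column, the shallowest, had 0 counts of 5 of the 9 genes (Rims2, Unc13b, Cplx3, Cplx4 and Lrit3), and 0 counts there allow up to 1.05 CPM. The share of all genes with 0 counts in RGC was not computed. The median share of summed CPM in RGC was 0% for the 9 genes and 3.70% for all genes with at least 20 counts.

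**Figure D1:**
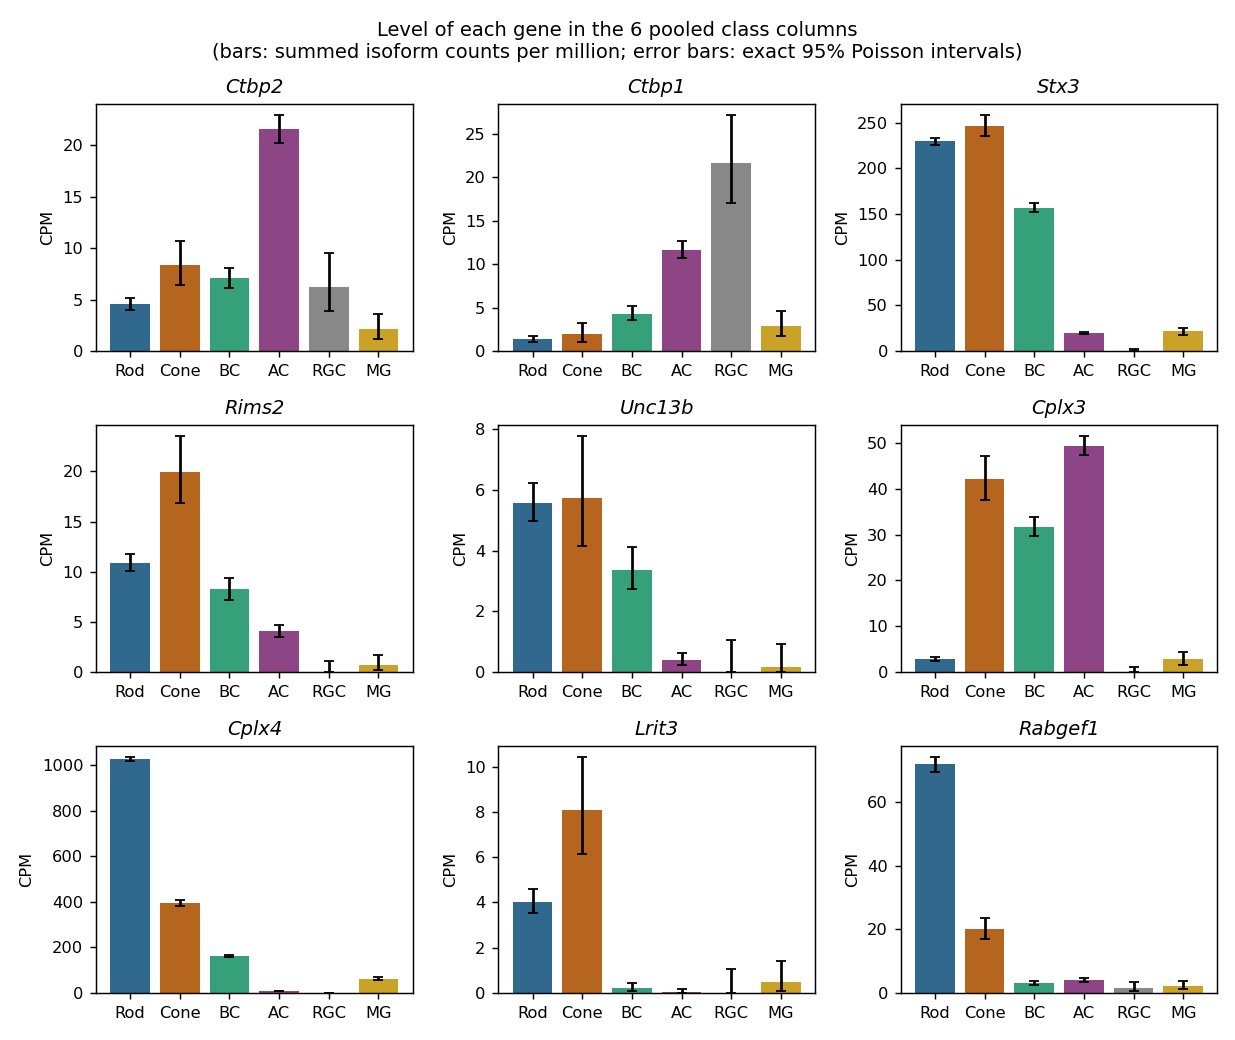
Levels in CPM (vertical axes, each gene with its own scale from 0) of the 9 genes in the 6 pooled class columns, with exact 95% Poisson intervals. Cplx4 and Rabgef1 stand highest in Rod, Lrit3 and Rims2 in Cone, Ctbp2 and Cplx3 in AC, and Ctbp1 in RGC.

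Ctbp2, the gene of ribeye and CtBP2, was measured at 21.6 CPM in AC (20.3 to 22.9; 1040 counts), 8.35 in Cone (6.39 to 10.7; 61 counts), 7.07 in BC (6.13 to 8.10; 205 counts), 6.27 in RGC (3.93 to 9.49; 22 counts), 4.58 in Rod (4.04 to 5.18; 254 counts) and 2.12 in MG (1.13 to 3.63; 13 counts). The amacrine column stood above the other 5, and the intervals of Cone, BC and RGC overlapped. AC exceeded Rod 4.70-fold (4.10 to 5.42) and Cone 2.58-fold (1.99 to 3.40). No listed isoform represents the ribeye form, so no counts were assigned to it. Whether ribeye RNA was counted on the listed isoforms through the shared exons was not tested. With annotated isoforms only, Cone was highest, with 74.7% of summed CPM, and the log2 ratio of Rod to AC turned from -2.23 to 0.34. Amacrine markers reached 0.847% of their own column in BC, 0.704% in Cone and 2.31% in Rod, where Ctbp2 stood at 32.8%, 38.7% and 21.3% of its AC level.

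No listed Ctbp2 isoform held the ribeye first exon (chr7:133013518-133015248, 1731 nt, minus strand). All 4 listed isoforms had a deposited model, so all 1595 counts were assigned to a known structure, 0 of them to one with the ribeye exon. No model of any gene overlapped it, nor was a locus without a gene name listed inside Ctbp2. The reference ribeye transcript (ENSMUST00000169570.7, 988 codons) has 8 introns, and the listed isoforms held 7 of them, all but the one that joins the ribeye exon to the rest. Among the 33517 spliced models of all genes, 40 (0.119%) had a first exon of 1731 nt or more. Of all 36426 models, 1590 (4.37%) were as long as the 3604-nt ribeye transcript, the median model being 1760 nt and the longest 5104 nt. The part of transcript length in the absence of ribeye from the list was not tested. The Ctbp2 counts of all 6 columns, rods, cones and bipolar cells included, were assigned to isoforms that start at CtBP2 exons.

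**Figure D2:**
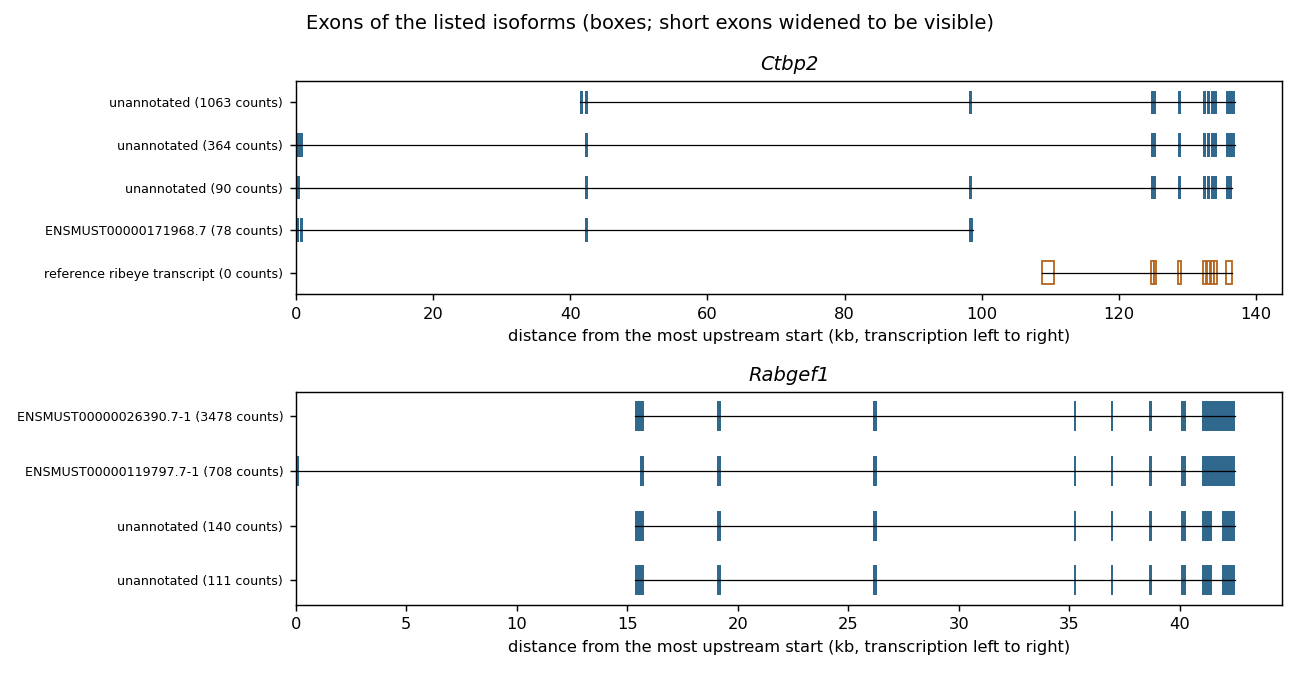
Exons of the listed isoforms of Ctbp2 and Rabgef1 against distance from the most upstream start in kb, transcription from left to right, with the total counts of each isoform. All 4 Ctbp2 isoforms start far upstream of the open box that begins the reference ribeye transcript, and 3 of the 4 Rabgef1 isoforms start at the downstream exon.

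The listed Ctbp2 isoforms began at 2 first exons, both upstream of the first coding exon of CtBP2. The first exon at chr7:133082466-133082587, held by 1 unannotated isoform of 11 exons, took 64.3% of counts in AC (61.3 to 67.2), 79.5% in BC (73.3 to 84.8), 73.2% in Rod (67.3 to 78.6), 95.5% in RGC (21 of 22 counts) and 26.2% in Cone (15.8 to 39.1; 16 of 61 counts). The farther first exon at chr7:133123658-133123992 took the rest. These shares follow the assignment of counts to listed isoforms, and the part of any ribeye RNA counted through the shared exons was not tested. Cones were the only column with at least 20 counts in which the farther exon held the majority (45 of 61 counts, 73.8%). Much of that was ENSMUST00000171968.7, a form of 4 exons that ends in a 644-nt exon (chr7:133025229-133025872), without the exons shared with ribeye. The reference gives only 7 coding nt for it, beginning in its last exon and not a whole number of codons. What protein this form encodes is therefore not known from these sources. ENSMUST00000171968.7 took 39.3% of cone counts (27.1 to 52.7; 24 of 61), 11.4% of rod counts (7.78 to 16.0; 29 of 254), 2.44% of BC counts (5 of 205) and 1.92% of AC counts (1.18 to 2.95; 20 of 1040). The photoreceptor columns stood above the AC column in this share, their intervals not overlapping with it.

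The 160-nt exon at chr7:133025713-133025872 holds the start codon of the 445-codon CtBP2 form, and a reference transcript that skips it encodes 420 codons from a start further downstream. Among counts of isoforms that reach the shared exons, it was included in 91.0% in BC (86.1 to 94.6), 87.1% in Rod (82.0 to 91.2), 71.0% in AC (68.1 to 73.8) and 54.1% in Cone (36.9 to 70.5; 20 of 37), and in 22 of 22 counts in RGC. AC and Cone were lower than BC and Rod beyond their intervals. Any ribeye RNA counted on these isoforms through the shared exons would enter these shares too, and its part was not tested. The isoform that skips it was an unannotated one with 296 of its 364 counts in AC.

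Ctbp1, the paralogue of Ctbp2 that encodes a co-repressor and the BARS protein of Golgi membranes and makes no ribeye, was measured at 21.7 CPM in RGC (17.1 to 27.1; 76 counts), 11.6 in AC (10.7 to 12.6; 561 counts), 4.31 in BC (3.59 to 5.13; 125 counts), 2.93 in MG (18 counts), 1.92 in Cone (14 counts) and 1.33 in Rod (1.05 to 1.68; 74 counts). The inner retina stood above the photoreceptors: RGC exceeded AC 1.86-fold (1.45 to 2.37) and Rod 16.2-fold (11.6 to 22.7). The order of MG, Cone and Rod was not resolved in full, as the MG interval (1.74 to 4.64) and the Cone interval (1.05 to 3.21) overlapped. Its 8 isoforms included a 193-nt exon (chr5:33269442-33269634) in 87.2% of AC counts (489 of 561), 77.6% in BC (97 of 125), 89.2% in Rod (66 of 74) and 84.2% in RGC (64 of 76). In the reference, ENSMUST00000202868.3, which has this exon, encodes 429 codons and ENSMUST00000079746.9, which lacks it, 441. The most abundant isoform of Ctbp1 was the same in all 6 pairs of classes that could be compared.

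Stx3 encodes syntaxin 3, the plasma membrane SNARE of ribbon synapses. It was measured at 246 CPM in Cone (235 to 258; 1800 counts), 230 in Rod (226 to 234; 12732 counts), 157 in BC (153 to 162; 4557 counts), 21.5 in MG (18.0 to 25.5; 132 counts), 19.5 in AC (18.3 to 20.8; 943 counts) and 0.570 in RGC (2 counts). The 3 classes with ribbons stood above the 3 without, with a step of 7.30-fold between BC and MG (6.14 to 8.74) and 8.04-fold between BC and AC (7.49 to 8.63). Cone and Rod differed by 1.07-fold (1.02 to 1.13), and MG and AC were not separated (1.10-fold, 0.911 to 1.32). The AC level was 8.51% of the rod level and the MG level 9.37%, where single rod markers ranged from 0.582% to 0.969% in AC and from 0.984% to 7.86% in MG.

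A single Stx3 isoform was listed in all columns: ENSMUST00000075304.13 with 11 exons and 287 codons, which took 20166 of 20166 counts. It ends in the exons at chr19:11782800-11782910, chr19:11777088-11777170 and chr19:11775118-11776588. The reference transcript ENSMUST00000069285.5, with 289 codons, uses other exons there, at chr19:11783026-11783136, chr19:11781567-11781680 and chr19:11777485-11779173, and none of these was in a listed isoform or overlapped by a model. These exons encode the end of the SNARE region and the membrane anchor, and retinal ribbon synapses are known for a splice form of this end named syntaxin 3B. The annotation names neither form by a letter, so none is assigned here. Since only this isoform was listed, the counts of every column were assigned to the same C-terminal exons. Use of these exons could therefore not be compared between classes.

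Rims2 and Unc13b encode active zone proteins, RIM2, which tethers calcium channels and vesicles, and Munc13-2, which primes vesicles for fusion. Rims2 was measured at 20.0 CPM in Cone (16.9 to 23.5; 146 counts), 10.9 in Rod (10.0 to 11.8; 604 counts), 8.24 in BC (7.23 to 9.35; 239 counts), 4.08 in AC (3.53 to 4.70; 197 counts), 0.652 in MG (4 counts) and 0 in RGC. Cone exceeded Rod 1.83-fold (1.52 to 2.20), and Rod exceeded BC 1.32-fold (1.14 to 1.54).

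No listed Rims2 isoform was full length. The best one held 11 of the 26 introns of the reference ENSMUST00000042917.9, all together held 20, and 1 of the 8 isoforms with a known structure reached the last intron. Isoforms starting at the first exon at chr15:39198068-39198538, which end early in the gene, took 91.1% of Cone counts (133 of 146), 89.6% of Rod counts (541 of 604) and 77.8% of BC counts (186 of 239), but 2.48% of AC counts (4 of 161 with a known structure). In AC, 140 of 161 counts (87.0%) belonged to the short non-coding ENSMUST00000227469.1 of 2 exons, listed as 2 entries, which starts near the other end of the gene at chr15:39659566-39659926. Neither entry had a deposited model, and its exons are those of GENCODE M21. It had 2 counts in BC and 0 of 604 in Rod. Photoreceptor and bipolar counts thus lay mostly on forms early in Rims2, and AC counts on a form near its other end. These forms cover separate parts of the gene, and none is full length. Of all 36426 models, 19 (0.0522%) were as long as the 4719-nt reference transcript. The part of transcript length in this pattern was not tested. A further 36 AC counts belonged to an isoform without a deposited structure. The most abundant isoform differed between AC and BC, Cone and Rod by 66.9, 82.2 and 78.3 percentage points, pairs in which 9.23%, 8.05% and 10.8% of all genes switched. Within the upstream forms, the 87-nt exon was included in 98.5% of Cone counts (131 of 133), 91.7% of Rod counts (496 of 541) and 88.2% of BC counts (164 of 186).

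Unc13b was measured at 5.75 CPM in Cone (4.14 to 7.77; 42 counts), 5.57 in Rod (4.97 to 6.23; 309 counts), 3.38 in BC (2.74 to 4.12; 98 counts), 0.394 in AC (0.237 to 0.615; 19 counts), 0.163 in MG (1 count) and 0 in RGC. Cone and Rod were not separated (1.03-fold, 0.729 to 1.43), and both stood above BC. None of its 6 isoforms carries an Ensembl identifier, and 5 have a known structure. The best of these covers 9 of the 40 introns of ENSMUST00000207569.1 and all together cover 14. Of the 19 AC counts, 18 came from an isoform seen in no other column and without a deposited structure.

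Forms of Unc13b starting at chr4:43058984-43059285 held 99.0% of BC counts (97 of 98), 92.9% of Rod counts (287 of 309) and 42 of 42 Cone counts. Within them the 36-nt exon was included at like rates, 70.1% in BC, 69.0% in Cone and 69.7% in Rod. The 33-nt exon was included in 43.6% of Rod counts (37.7 to 49.5; 125 of 287), 21.4% of Cone counts (10.3 to 36.8; 9 of 42) and 14.4% of BC counts (8.12 to 23.0; 14 of 97). Rods included it more often than cones and bipolar cells, with intervals that did not overlap, and cones and bipolar cells were not separated.

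**Figure D3:**
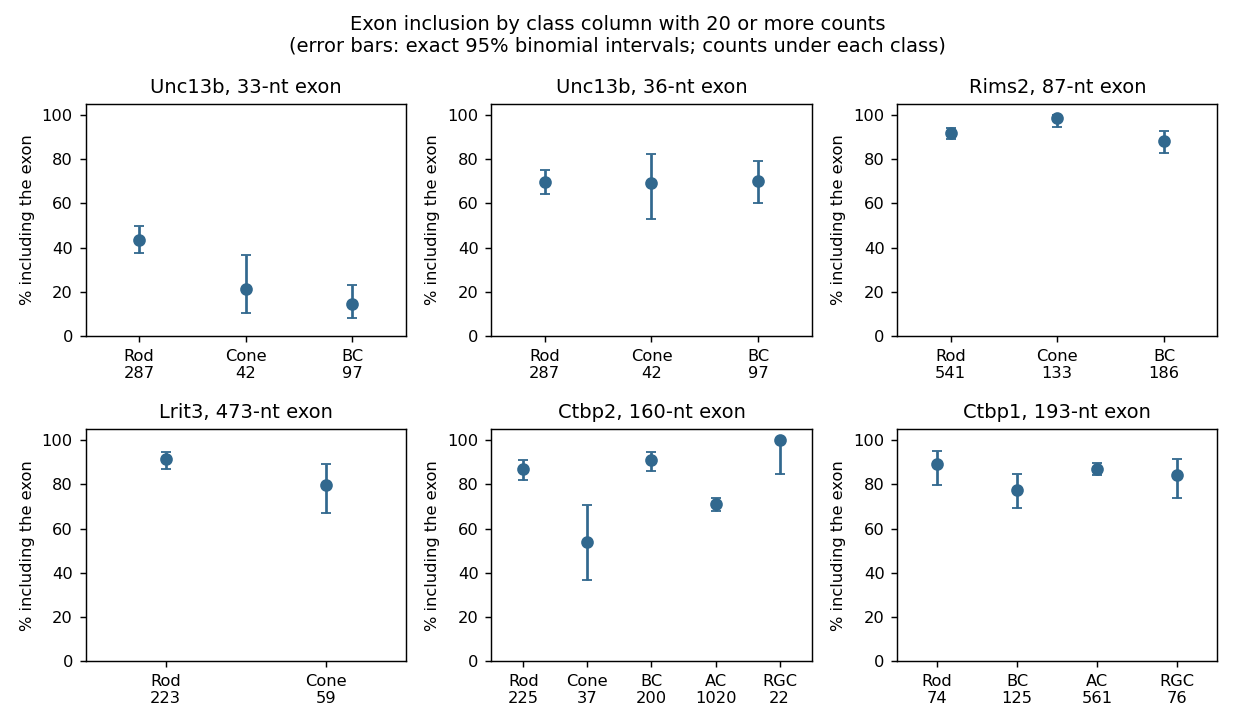
Percentage of counts that include each exon (vertical axis) by class column with at least 20 counts, with exact 95% binomial intervals and the number of counts under each class. The 33-nt exon of Unc13b is at 43.6% in Rod against 14.4% in BC, whereas the 36-nt exon lies near 70% in all 3 columns.

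Cplx3 and Cplx4 encode the complexins of ribbon synapses, small proteins that bind the assembled SNARE complex and are anchored to membranes by a farnesyl group. Cplx3 was measured at 49.5 CPM in AC (47.5 to 51.5; 2387 counts), 42.2 in Cone (37.6 to 47.1; 308 counts), 31.7 in BC (29.7 to 33.9; 921 counts), 2.83 in Rod (2.41 to 3.31; 157 counts), 2.77 in MG (17 counts) and 0 in RGC. Cone exceeded Rod 14.9-fold (12.2 to 18.2), and AC exceeded Cone 1.17-fold (1.04 to 1.33), an order that turned with median-of-ratios scaling, under which Cone was highest. The Rod level was 6.72% of the Cone level and 5.72% of the AC level, where summed cone markers stood at 1.88% of their own level in Rod and amacrine markers at 2.31%. What share of the rod counts came from other cells was not tested.

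Cplx4 was measured at 1027 CPM in Rod (1019 to 1035; 56933 counts), 396 in Cone (381 to 410; 2891 counts), 162 in BC (158 to 167; 4712 counts), 62.0 in MG (55.9 to 68.5; 380 counts), 7.27 in AC (6.53 to 8.08; 351 counts) and 0 in RGC. Rod exceeded Cone 2.60-fold (2.50 to 2.70) and BC 6.32-fold (6.14 to 6.51). As a percentage of the rod level, AC stood at 0.708% and MG at 6.03%, inside the range of the 5 rod markers in those columns. BC stood at 15.8% and Cone at 38.5%, above the highest rod marker there (2.11% and 6.84%).

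The single Cplx4 isoform was the annotated ENSMUST00000025397.6 with 3 exons and 160 codons. The single Cplx3 isoform, in all 5 columns with counts, was ENSMUST00000215487.1, which has 2 exons and lacks the 88-nt middle exon printed above. The annotation gives it 75 codons, against 158 for ENSMUST00000045068.9 of 3 exons, which was not listed. All 3790 Cplx3 counts were assigned to the short form, the only one listed, so use of the longer form could not be compared between classes. A locus listed without a gene name or a deposited structure at this end of Cplx3 had 26 counts in BC and 0 in Rod.

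Lrit3 encodes a leucine-rich repeat membrane protein of photoreceptors that organises the receptor complex on the dendrites of ON bipolar cells across the synapse. It was measured at 8.07 CPM in Cone (6.15 to 10.4; 59 counts), 4.02 in Rod (3.51 to 4.59; 223 counts), 0.489 in MG (3 counts), 0.207 in BC (6 counts), 0.0622 in AC (3 counts) and 0 in RGC. Cone exceeded Rod 2.01-fold (1.48 to 2.69), and Cone exceeded BC 39.0-fold (16.9 to 111). The BC level was 5.14% of the rod level and 2.56% of the cone level. The longer of its 2 isoforms, ENSMUST00000185462.6 with 681 codons, includes a 473-nt exon (chr3:129800338-129800810) and took 91.5% of Rod counts (204 of 223) and 79.7% of Cone counts (47 of 59).

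Rabgef1 encodes Rabex-5, the exchange factor that activates the endosomal GTPase Rab5. It was measured at 72.0 CPM in Rod (69.8 to 74.2; 3990 counts), 20.1 in Cone (17.0 to 23.6; 147 counts), 3.96 in AC (3.42 to 4.56; 191 counts), 3.14 in BC (2.53 to 3.85; 91 counts), 2.12 in MG (13 counts) and 1.42 in RGC (5 counts). Rod exceeded Cone 3.58-fold (3.03 to 4.25) and AC 18.2-fold (15.7 to 21.1), and AC and BC were not separated (1.26-fold, 0.978 to 1.64).

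The Rabgef1 counts came from the starts whose promoter windows are printed above. Isoforms with the downstream first exon (chr5:130187161-130187586) took 88.5% of Rod counts (3533 of 3990) and 85.7% of Cone counts (126 of 147), against 31.9% in BC (29 of 91), 17.3% in AC (33 of 191), 8 of 13 counts in MG and 0 of 5 in RGC. The upstream first exon (chr5:130171824-130171894) took the others: 82.7% in AC and 68.1% in BC. The full-length form from either start has a coding sequence of 491 codons in the reference, beginning in exon 1 of ENSMUST00000026390.7 and in exon 2 of ENSMUST00000119797.7, so the starts differ before the coding sequence.

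As levels, the upstream start was used in every column: 8.24 CPM in Rod (7.50 to 9.04), 3.27 in AC (2.78 to 3.83), 2.87 in Cone (1.78 to 4.39), 2.14 in BC (1.64 to 2.74), 1.42 in RGC (0.463 to 3.32) and 0.815 in MG (0.265 to 1.90). The downstream start was at 63.7 CPM in Rod (61.6 to 65.9) and 17.2 in Cone (14.4 to 20.5), but at 1.30 in MG (0.563 to 2.57), 1.00 in BC (0.669 to 1.44), 0.684 in AC (0.471 to 0.961) and 0 in RGC. As a percentage of its rod level, the downstream start was at 1.57% in BC and 2.05% in MG, inside the range of the 5 rod markers in those columns (1.54% to 2.11% and 0.984% to 7.86%). In AC it was at 1.07%, just above the highest rod marker (0.969%), and in Cone at 27.1%, above the highest there (6.84%). The upstream start was at 39.7% of its rod level in AC and 25.9% in BC, well above the rod markers.

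**Figure D4:**
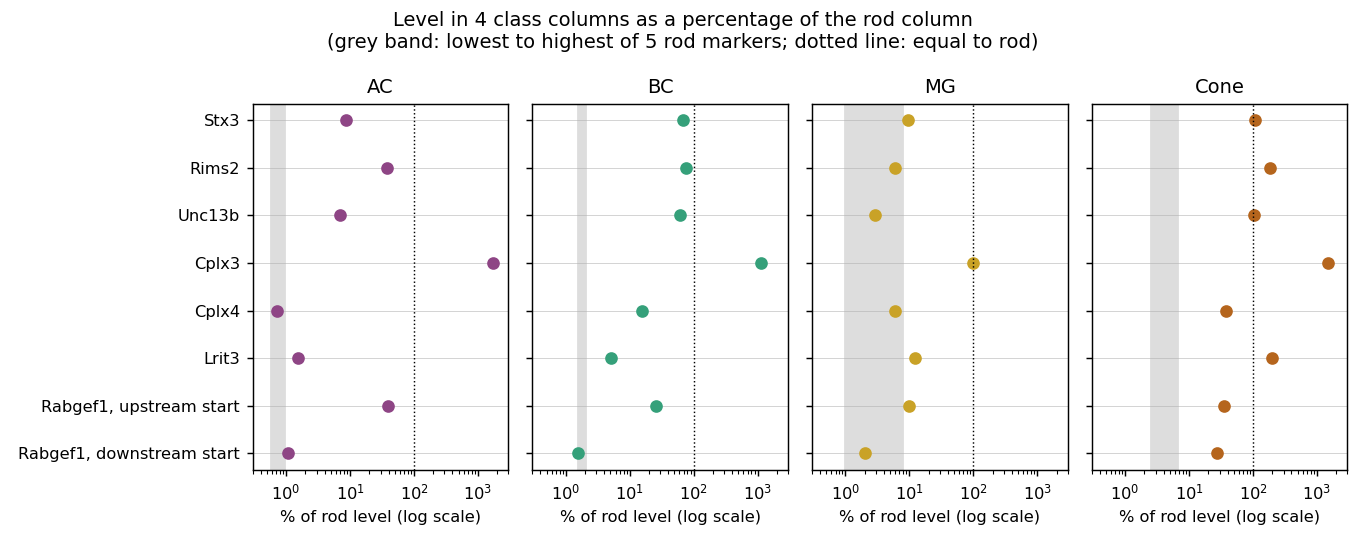
Level in the AC, BC, MG and Cone columns as a percentage of the rod level (horizontal log axis) for 6 genes and for the Rabgef1 starts, with the range of 5 rod markers as a grey band. The downstream start of Rabgef1 lies in or next to the band in AC (1.07%), BC (1.57%) and MG (2.05%) and outside it in Cone (27.1%), and Cplx4 lies in the band in AC (0.708%) but not in BC (15.8%).

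In rods, 5.84% of Rabgef1 counts (233 of 3990) came from forms in which an intron within the last exon was removed, and 6.12% of Cone counts did (9 of 147). A single-exon locus without a gene name lay just inside the gene from the downstream start on, at chr5:130187208-130189578 on the same strand, with 168 counts in Rod and 0 in the other columns.

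A switch between classes was called where the most abundant isoform differed and its share differed by at least 50 percentage points, where both classes had 20 or more counts of that gene. Of the 6 members with 2 or more isoforms that could be compared, 3 switched in at least 1 pair: Rabgef1 in 4 of its 6 pairs, Rims2 in 3 of 6 and Ctbp2 in 2 of 10. Among all 7317 genes that could be compared, 25% switched in any pair. Rabgef1 switched between AC and Rod (71.3 percentage points), AC and Cone (68.4), BC and Rod (57.4) and BC and Cone (54.3), pairs in which 10.8%, 8.05%, 4.32% and 2.26% of genes switched. Ctbp2 switched between BC and Cone (53.3) and between Cone and RGC (69.2; 11.7% of genes), where its most abundant isoform in cones was the short 4-exon form. That form was the first of 3 with overlapping intervals in the 61 cone counts: 24 counts (39.3%, 27.1 to 52.7), against 17 (27.9%, 17.1 to 40.8) and 16 (26.2%, 15.8 to 39.1) for the next. With at least 100 counts required in each class, neither Ctbp2 pair could be compared, and 2 members switched (Rims2 in the same 3 pairs and Rabgef1 between AC and Rod and AC and Cone). At equal depth 1 member switched. No member switched between Cone and Rod, where 1.18% of genes did. The most abundant Ctbp2 isoform did differ there, by 47.0 percentage points, and between AC and Cone by 38.1, both under the threshold.

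**Figure D5:**
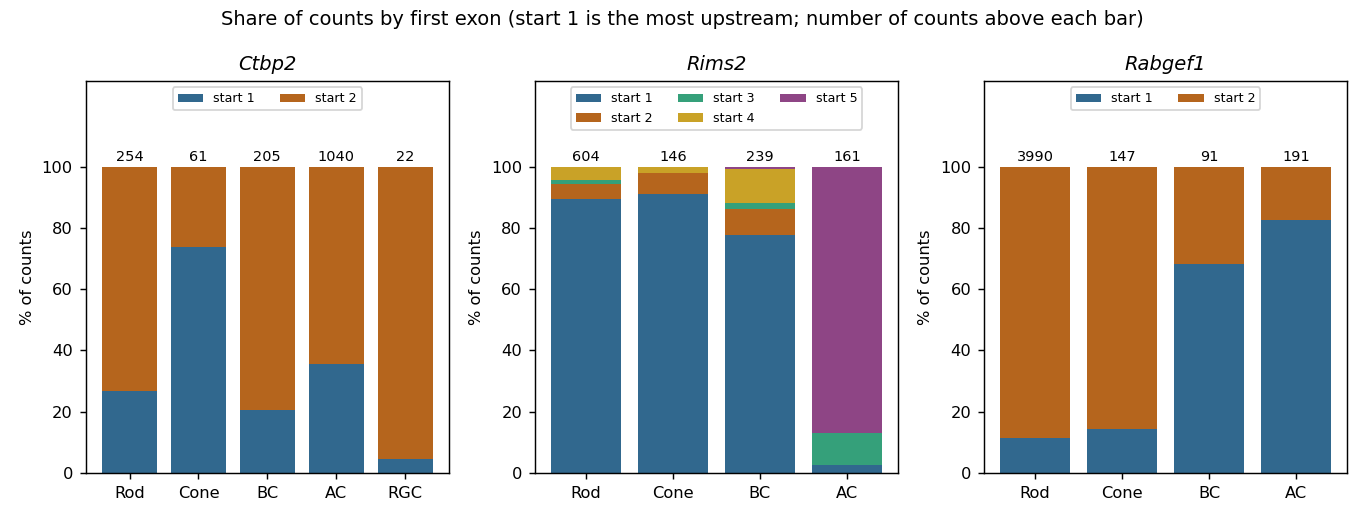
Share of counts by first exon (stacked percentages, start 1 being the most upstream) for Ctbp2, Rims2 and Rabgef1 in class columns with at least 20 counts of known structure, given above each bar. Rod and Cone share the downstream start of Rabgef1 (88.5% and 85.7%), AC stands apart for Rims2 (87.0% at start 5), and Cone stands apart for Ctbp2 (26.2% at start 2).

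The partner genes of these proteins were followed as 4 lists of 25 genes, of which 23 were in the table and 22 had at least 20 counts. Of these 22, 4 were highest in Rod or Cone (Unc13a, Lrit1, Rabep1 and Rabep2), where 32.4% of all genes were. In the list of ribbon and active zone scaffolds (Bsn, Pclo, Rims1, Erc1, Erc2 and Rimbp2), 0 of 6 genes were highest in a photoreceptor column (32.4% of all genes). Levels were low and some orders close, and no intervals were computed for these genes. Bsn was at 0.249 CPM in AC, 0.207 in BC and 0.198 in Rod. Erc2 was at 4.56 in RGC, the shallowest column, and 3.77 in Rod. Pclo, the scaffold piccolo, was at 7.79 CPM in BC, 6.16 in Cone, 0.953 in AC and 0.848 in Rod. Rims1, the paralogue of Rims2, was at 5.70 CPM in RGC, 4.15 in AC, 4.08 in MG, 1.14 in BC and 0.325 in Rod. It was at 0 in Cone, the column in which Rims2 was highest.

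In the list of priming and fusion genes, 1 of 7 measured genes was highest in a photoreceptor column (32.4% of all genes), and 3 of 7 were enriched in RGC (Stx1a, Snap25 and Cplx1), where 4.89% of all genes were. Stx1a, a syntaxin of conventional synapses, was at 66.1 CPM in RGC and 25.5 in AC but at 2.59 in BC, 0.794 in Rod and 0.274 in Cone. Cplx1 was at 216 CPM in RGC and 87.5 in AC and at 2.15 in Rod, 1.78 in Cone and 1.14 in BC. Unc13a, the paralogue of Unc13b, was at 4.73 CPM in Rod and 2.13 in AC, and Unc13c was highest in BC at 5.65.

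Of the partners of Lrit3 on the ON bipolar dendrite, Nyx, Grm6 and Trpm1 were enriched in BC (91.0%, 94.4% and 99.1% of summed CPM), where 4.66% of all genes were. Lrit3 itself was at 94.1% in the rod and cone columns together, and its relative Lrit1 at 70.9%, with 31.3 CPM in Cone, 27.0 in Rod and 21.8 in BC. Of the 5 Rab5 partners of Rabgef1, 2 were highest in Rod (Rabep1 and Rabep2) and 3 in AC (Rab5a, Rab5b and Rab5c). Among the 12654 genes with at least 20 counts, 3029 were highest in Rod and 2649 in AC. Some orders among the 5 were close, and no intervals were computed for them. Rab5b was at 33.7 CPM in AC, 26.2 in RGC and 5.97 in Rod. Rabep2 ran from 8.89 in Rod over 8.15 in MG, 7.27 in BC, 6.84 in RGC and 5.75 in Cone to 4.39 in AC. Rab5a was at 26.1 CPM in AC and 25.2 in Rod, Rab5c lay between 82.7 CPM in Cone and 202 in AC, and Rabep1, whose product forms a complex with Rabex-5, was at 1.41 in Rod and 1.16 in AC.

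The genes whose levels were most like those of a member were found by Pearson correlation of log2(CPM + 1) over the 6 columns among 8395 genes with at least 200 counts. With only 6 points, each a class sum of unlike depth, these are descriptions. Rabgef1 was most like Samd7 (r = 0.997), which encodes a transcriptional repressor of photoreceptors, then Mrpl32 and Dlg4 (both r = 0.996). Cplx4 was most like St7l and Slc38a9 (both r = 0.998) and Ccdc62, Stx3 like Zfp758 (r = 0.993), Trappc11 and Rbm25, and Unc13b like Pitpnm1 (r = 0.994), Dmd and Rbm27. Lrit3 was most like Svil (r = 0.994), Rims2 like Mrpl34 (r = 0.989), Cplx3 like Krt222 (r = 0.974), Ctbp2 like Ggnbp2 (r = 0.993) and Ctbp1 like Tcf19 (r = 0.998).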

How the data were processed

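Isoform counts were read from 1 deposited table, whose whole-number counts the authors had summed over the 4 libraries into 6 class columns. Per the deposited annotation and the submitters' processing notes, isoforms were built with FLAIR on mm10; whether the counts are reads or molecules is not given in the sources used here. The coordinates of exons came from the authors' deposited transcript models, which cover isoforms with rod counts. For 3 annotated entries without a model (both of Rims2 ENSMUST00000227469.1 and Ctbp1 ENSMUST00000201575.3) the exons were taken from GENCODE M21, and 2 unannotated isoforms had no known structure. Isoforms were matched by gene identifier to GENCODE M21, and all 9 members matched. Counts were summed per gene and scaled to 1000000 per column. No p-value was computed, because no class had more than 1 column. The rules for enrichment and switches were tested on simulated data, with 200 changed genes each. Both rules recovered all 200, and 71 unchanged genes were called enriched and 0 switched. The planted changes were large and in well-counted genes, so smaller differences at low counts were not covered. The members, the gene lists and the genes named (all members, all list genes by count and the 3 genes most like each member) were chosen with earlier results of these data known. Some genes of the marker and partner lists are not reported here and were left out of their sums and counts. Partner genes given with values were picked from the lists after their values were seen. Alternatives included scaling by TMM and by median of ratios (both computed in Python), other thresholds and columns thinned to 3509890 counts (20 draws). Python 3.11.15, pandas 2.3.3 and scipy 1.17.1 were used.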

Additional observations from a re-analysis of the deposited data

How the results depend on the processing

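Of 71 comparisons of a value with an alternative, 62 stayed within their limits (1.5 times for counts of genes, the 95% interval for others). Some of the 62 could not have moved. Limits to isoforms with a deposited model or at least 10 counts removed no isoform of Ctbp2 or Rabgef1. A limit to annotated isoforms removed none of Stx3, Cplx3 or Cplx4, and the ribeye share stayed at 0%. Median-of-ratios scaling multiplied column totals by 0.848 (MG) to 1.14 (AC) and TMM by 0.904 (Cone) to 1.10 (RGC). The number of members highest in Rod or Cone was 6 with TMM scaling, 7 with median of ratios (Cplx3 moved to Cone) and 5 with annotated isoforms only (Rims2 moved to AC, Ctbp2 to Cone, and Unc13b had none). At 80% of summed CPM, 0 of 9 members and 13.1% of the 12654 genes were enriched. With annotated isoforms only, the share of the downstream Ctbp2 first exon was 0% in AC, BC, Cone and Rod, since the isoform that holds it carries no Ensembl identifier, and the log2 ratio of Rod to AC for Ctbp2 was 0.34 in place of -2.23. At equal depth, 1 member switched in place of 3, with fewer counts per column, and at 100 counts in each class 2 did (Rabgef1 and Rims2). In an alternative chosen after seeing the data, the rod-marker level of each column times the rod counts was subtracted: the downstream share of Rabgef1 was then 5.36% in AC, 0% in BC and 85.2% in Cone. Differences below 0 were set to 0. This applied in BC, where the downstream start was at 1.57% of its rod level and 1.71% was subtracted, so the 0% is not a measured share. Depth limits the Ctbp2, Unc13b and Lrit3 shares in Cone (61, 42 and 59 counts) and all RGC values. No paired analysis was possible because each class is 1 sum over libraries. Libraries could not be left out in turn, since the columns pool them.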
